A study of Mus musculus with 2 samples.

Results

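Cytosolic ribosomal protein genes were examined in the contact map of the Pou5f1 enhancer in mouse embryonic stem (ES) cells. They were taken from GENCODE M1 as protein-coding genes with symbols starting Rpl or Rps and a digit, plus Rplp0, Rplp1, Rplp2 and Rpsa. Ribosomal S6 kinases, symbols marked as pseudogenes and chromosome Y were left out. The rule gave 85 genes of 22350 protein-coding genes on chromosomes 1 to 19 and X, and it used no contact data. Of the 85 members, 77 lie on other chromosomes than the bait and 8 on chromosome 17 with the bait. In all, 76 are core components, 45 of the large and 31 of the small subunit. The other 9 are paralogs of core genes or match by symbol without being a ribosomal protein.

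The contacts came from enzyme-based 4C-Seq, in which cross-linked chromatin is cut with HindIII and ligated, and DNA joined to a chosen bait is amplified and sequenced. The bait was an upstream enhancer of Pou5f1, the gene of the pluripotency factor Oct4. Both samples were cultures of the E14 line grown with LIF and serum, with no genetic change or treatment other than formaldehyde cross-linking named in the labels. They are replicates 1 and 2 of 1 group, so there is no control sample and no comparison of conditions. The study calls them biological replicates, and a single line was used. The files hold positions and no expression values, so the ES cell identity could not be checked against markers.

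Replicate 1 had 79 enriched regions off chromosome 17 and replicate 2 had 94, and each had 12 on chromosome 17. Some regions touched, and counted as 1 where they did, there were 65 and 82 off chromosome 17. Off chromosome 17, the regions held between 47 and 1218 HindIII motifs each, with a median of 729. A further table listed 1806 contacted HindIII sites in reproducible regions, with the replicates pooled, of which 590 lay off chromosome 17. All 1806 fell where a region of replicate 1, joined to any touching region, met a region of replicate 2. Since regions and sites carry no read counts, the depth behind each of them is unknown, and the study's library totals give replicate 1 more reads than replicate 2. With 1 group of 2 replicates an exact test over samples is too small to pass a usual threshold, and no p-value is given. All shares are descriptions.

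Ribosomal proteins assemble with ribosomal RNA into the small subunit, which reads the messenger RNA, and the large subunit, which joins amino acids. Their genes are spread over nearly all chromosomes rather than clustered, are transcribed strongly in dividing cells and are usually expressed together. ES cells divide quickly and use them at a high level. Some paralogs among the members are instead known from single tissues, and no expression was measured in these samples. The 85 members lay on 19 chromosomes, with 14 on chromosome 7 and 7 on chromosome 11.

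The contacts closest to these genes were single HindIII sites, and 9 of them are shown because they are the listed sites nearest to members with a contact within 50 kb. Sequences are from the plus strand of NCBIM37 (the mm9 assembly), with the HindIII recognition motif in capitals and 27 reference bases on each side. On chromosome 17 the sites were as follows.
Rps2, chr17:24855148-24855207: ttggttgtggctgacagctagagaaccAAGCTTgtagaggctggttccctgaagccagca
Rpl3l, chr17:24859990-24860049: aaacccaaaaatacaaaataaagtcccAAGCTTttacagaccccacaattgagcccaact
Rps28, chr17:33961050-33961109: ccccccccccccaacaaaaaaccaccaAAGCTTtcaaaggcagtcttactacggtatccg
Rps18, chr17:34094753-34094812: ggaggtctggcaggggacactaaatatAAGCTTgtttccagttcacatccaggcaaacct
Rpl7l1, chr17:46916700-46916759: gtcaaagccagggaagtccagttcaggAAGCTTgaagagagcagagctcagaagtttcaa
Rpl36, chr17:56749484-56749543: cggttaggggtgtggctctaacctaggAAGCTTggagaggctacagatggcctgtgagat

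Off chromosome 17, 4 of 77 members (5.19%) had a listed site within 50 kb, beside a background of 5.73% of all protein-coding genes there. The sites of 3 of them read as follows.
Rps16, chr7:29166560-29166619: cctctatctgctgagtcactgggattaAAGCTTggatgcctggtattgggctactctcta
Rpl13, chr8:125656922-125656981: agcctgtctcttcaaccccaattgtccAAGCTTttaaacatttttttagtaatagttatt
Rps27, chr3:89976126-89976185: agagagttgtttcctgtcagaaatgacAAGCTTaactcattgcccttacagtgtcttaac
All 9 motifs had flanks of 30 bases on both sides not found next to any other such motif of the genome. Only exact matches next to HindIII motifs were compared, so unique alignment of reads in the whole genome was not tested.

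The first question was how often a ribosomal protein gene start lay inside an enriched inter-chromosomal region. Off chromosome 17, the start of 19 of 77 members (24.7%) lay in a region of replicate 1, against 17.7% of all 21259 protein-coding genes. In replicate 2 it was 22 of 77 (28.6%), against 20% of all genes. The mean over the replicates was 26.6% ± 2.75 (SD, n = 2) for members and 18.9% ± 1.62 (SD, n = 2) for all genes. Both replicates thus placed a larger share of members than of all genes in regions.

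Gene-dense places entered the regions more often than sparse ones, so the members were also set against genes in equally gene-dense places. Local density was counted as other protein-coding gene starts per Mb within 1 Mb on each side of a gene start. Members had a median of 15.5 per Mb and all genes 14 per Mb. Other genes weighted to the density classes of the members gave 19% in replicate 1 and 21.3% in replicate 2. The excess of members was 5.67 percentage points in replicate 1 and 7.27 in replicate 2, with a mean of 6.47 ± 1.13 (SD, n = 2). It fell to 3.61 when HindIII motif density was matched as well, and to 3.33 without olfactory and vomeronasal receptor genes and genes with provisional Gm or Rik names. With both changes together it was 2.39 ± 1.04 (SD, n = 2), made up of 1.66 in replicate 1 and 3.13 in replicate 2. The excess was above 0 in both replicates under each of these matchings.

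Presence in both lists gave another picture. Only 8 of 77 members (10.4%) lay in regions of both replicates, beside a background of 10% of all genes and 11.1% of density-matched genes. A share near the background is no result about these genes. By contrast, 25 members (32.5%) lay in a region of exactly 1 replicate, beside 17.7% of all genes and 18.1% of density-matched genes. Under the other 4 ways of matching, the share in exactly 1 list among compared genes was higher, between 20.2 and 21.7%. The single-list members were 11 in replicate 1 (14.3%, against 7.70% of other genes) and 14 in replicate 2 (18.2%, against 9.98%). Regions of either replicate held 33 members (42.9%), beside 27.7% of all genes. Of those 33, 8 were in both lists (24.2%), whereas of the 5897 genes in either list 36.1% were in both.

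**Figure D1:**
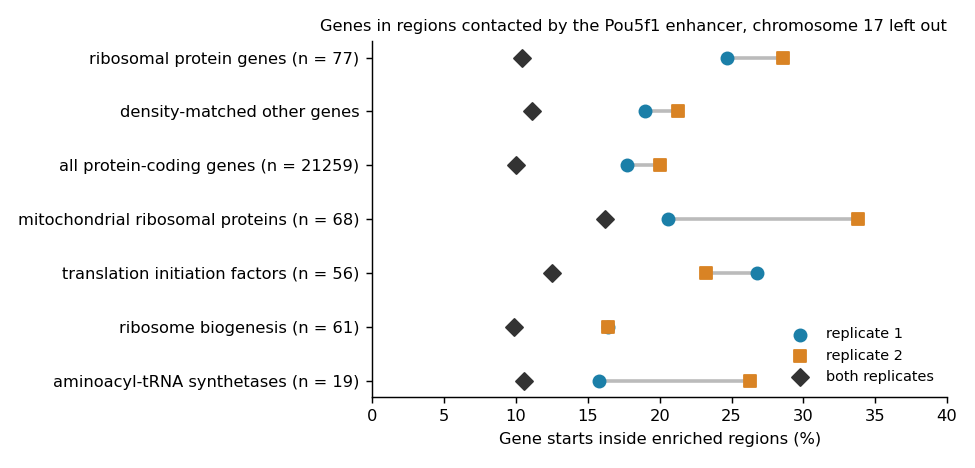
Percent of gene starts inside enriched regions off chromosome 17 (horizontal axis), by gene group (rows). Circles are replicate 1, squares replicate 2 and diamonds both replicates. Ribosomal protein genes sit at 24.7 and 28.6% in replicates 1 and 2, right of the density-matched genes at 19 and 21.3%, whereas the diamonds of both rows lie near 10.4 and 11.1%.

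The members found in both lists included the large-subunit genes Rpl4, Rpl12 and Rpl31 and the small-subunit genes Rps15, Rps16, Rps26 and Rps27. Each of the 8 lay in a separate window. Found in replicate 1 only were, among others, Rpl6, Rpl13, Rpl13a, Rpl14, Rpl17, Rpl29, Rpl39 and Rplp2 of the large subunit and Rps4x and Rpsa of the small subunit. Rplp2 encodes a protein of the stalk that recruits translation factors, and Rpsa a small-subunit protein also known as the laminin receptor. Found in replicate 2 only were, among others, Rpl8, Rpl11, Rpl19, Rpl23, Rpl28, Rpl35a, Rpl37a, Rpl38 and Rplp0 together with Rps3, Rps9, Rps12 and Rps21. Rplp0 anchors the same stalk, Rpl11 is a regulator of the p53 pathway through Mdm2, and Rpl38 is known for the translation of Hox messages in the embryo.

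The remaining 44 members off chromosome 17 were in neither list. They include Rps6, the target of the S6 kinases, Rps19, which is mutated in Diamond-Blackfan anaemia, Rpl5, the partner of Rpl11, and Rps27a, which encodes ubiquitin fused to a ribosomal protein. A region of either replicate began or ended within 0.5 Mb of 8 of these 44 starts (18.2%), compared with 7.05% of the 15318 other genes in neither list.

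By subunit, 12 of 43 core large-subunit members off chromosome 17 (27.9%) fell in the list of replicate 1 and 13 (30.2%) in that of replicate 2, beside density-matched shares of 20.6 and 23.3%. Of 27 core small-subunit members, 7 (25.9%) and 9 (33.3%) did, beside 19 and 20.9%. In both lists were 4 of the 43 (9.30%) and 4 of the 27 (14.8%), beside density-matched shares of 12.4 and 11%. The mean shares of 29.1% ± 1.64 and 29.6% ± 5.24 (SD, n = 2 each) differed by less than the spread between replicates of either subunit.

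The 7 non-canonical members off chromosome 17 were in no region of either list. They are Rpl10l and Rpl39l, known from the testis, Rpl22l1, Rpl36al, Rps27l and Rps4y2, which are copies or relatives of core genes, and Rps19bp1, which encodes a binding partner of Rps19 and no ribosomal protein. Density-matched genes were in either list in 16.1% of cases, a share that 7 genes cannot tell from 0. Without them, the 70 core genes lay in regions in 29.3% ± 3.03 of cases (SD, n = 2), with an excess of 8.11 ± 1.34 percentage points (SD, n = 2) over density-matched genes.

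Place in the lists followed gene density for members as for other genes. Off chromosome 17, members in both lists had a median of 33.7 other gene starts per Mb (range 8.0 to 53.0), and other genes in both lists 26.5. Members in replicate 1 only and in replicate 2 only each had a median of 21.0, and members in neither list 10.0. Genes were ranked by density into 3 classes of equal size. In the sparsest class (up to 9.5 per Mb), 3 of 23 members (13.0%) were in either list, compared with 11.2% of other genes. In the middle class 11 of 25 (44.0%) were, against 25.7%. In the densest class, from 20.5 per Mb, 19 of 29 (65.5%) were, against 46.1%. In both lists were 1 member of the sparsest class (4.35%, against 0.920% of other genes), 1 of the middle class (4%, against 7.18%) and 6 of the densest (20.7%, against 21.9%).

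**Figure D2:**
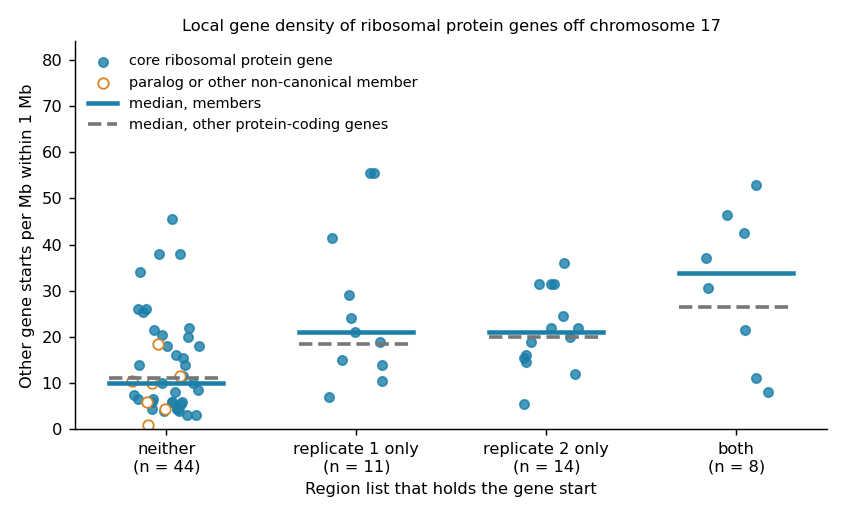
Local gene density (vertical axis, other protein-coding gene starts per Mb within 1 Mb) of the 77 members off chromosome 17, by the list that holds the gene start. Points are genes (filled, core; open, non-canonical), solid bars the median of members and dashed bars that of other genes. Median density rises from 10.0 in neither list to 21.0 in single lists and 33.7 in both, and all open points lie in neither list.

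Few members off chromosome 17 were close neighbours that could enter a list together. There, 6 pairs of adjacent members lay within 1 Mb. Among them were Rpsa and Rpl14 (443.7 kb apart) in replicate 1 only and Rpl23 and Rpl19 (244.3 kb) in replicate 2 only. Counting such neighbours once left 71 members, of which 26.8% ± 3.98 (SD, n = 2) lay in regions. By window, 17 of 79 regions of replicate 1 (21.5%) and 20 of 94 of replicate 2 (21.3%) held a member. Of the 34 windows found in both lists (30 with touching ones joined) 8 (23.5%) held one, and of the 105 windows of a single list 21 (20%) did.

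Within the 8 windows of both lists that held a member, the nearest listed sites were not at the ribosomal protein genes. The distance from a member's start to the nearest listed site ranged from 30.9 to 164.7 kb, with a median of 113.5 kb. For the 2121 other genes in all 34 windows of both lists, with or without a member, the median was 48.6 kb. A site lay within 50 kb of 3 of the 8 starts (37.5%), beside 50.9% of all genes in the 34 windows. None of the 8 had a site within 5 kb, beside 8.35% of other genes in the 34 windows. No member off chromosome 17 had a listed site in its body. With 8 members these differences have no error and no test.

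Rps16 came closest, with its nearest site 30.9 kb downstream between genes. Its window (chromosome 7, 26270112 to 30110365) held 13 sites among 1035 motifs, and only 24 of 115 other genes there were nearer to a site. Rps27 had a site 41.4 kb downstream in an intron of Nup210l, in a window on chromosome 3 (88575920 to 91549054) where 32 of 74 other genes were nearer. Both genes were nearer to a site than at least 50% of the other genes of their windows.

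A further 5 were farther away. Rpl31 (chromosome 1, window 38411704 to 40699729) lay 108.5 kb from a site in an intron of Npas2, a circadian transcription factor gene, and 8 of 20 other genes were nearer. Rps15 (chromosome 10, window 78149965 to 82328861) lay 118.6 kb from a site in an intron of Tcf3, a transcription factor gene, with 116 of 163 other genes nearer. For Rps26, on the same chromosome (window 125381910 to 128159590), the site lay 131.7 kb away in an intron of Myl6b, and 71 of 84 other genes were nearer.
Rpl12 (chromosome 2, window 30096717 to 32926859) stood 135.3 kb from the nearest site, so that 66 of 68 other genes were nearer. Rpl4, which lines part of the exit tunnel for new proteins (chromosome 9, window 63431900 to 65940102), stood 164.7 kb from a site in an intron of Smad6, with 29 of 39 nearer. Its window was among the less gene-rich of the 8, at 15.9 gene starts per Mb.

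Rpl13 was the only further member off chromosome 17 that the site table could reach. Its start lies in a region of replicate 1 that touches a region of both, and a site was listed 30.7 kb downstream in an intron of Cpne7. The long annotated gene Gm20388 also spans that site.

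Counted over motifs, 4 of 189 HindIII motifs within 50 kb of the 8 starts were listed (2.12%, exact 95% interval 0.580 to 5.33%). Within 50 kb of other genes in all 34 windows of both lists it was 424 of 19137 (2.22%, 2.01 to 2.43%). Over all motifs of the 34 windows it was 508 of 25606 (1.98%, 1.82 to 2.16%). The interval around the members holds both other shares, so a difference was not detectable with these motifs. Within 25 kb, 0 of 102 motifs near members were listed (exact 95% interval 0 to 3.55%). The intervals cover counting error only. With the members of 1 list in place of those in both, the share was 1.11% (5 of 452 motifs, replicate 1) or 0.778% (4 of 514, replicate 2). These sets add members in windows of a single list, which the site table mostly does not cover, so a lower share follows from how they were formed.

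On the bait chromosome, 6 of 8 members lay in regions of both replicates (75.0%), and the other 2 in neither. The background in both lists was 45.8% of the 1091 protein-coding genes of chromosome 17. In replicate 1 alone it was 50.5% and in replicate 2 alone 48%, against 6 of 8 members in each. Members of this chromosome also lay in denser surroundings, with a median of 38.0 other gene starts per Mb against 22.5 for other genes. Other genes weighted to the density of the members gave 70.0% in replicate 1, 67.0% in replicate 2 and 65.2% in both, so the share of the 8 members was near that of density-matched genes.

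**Figure D3:**
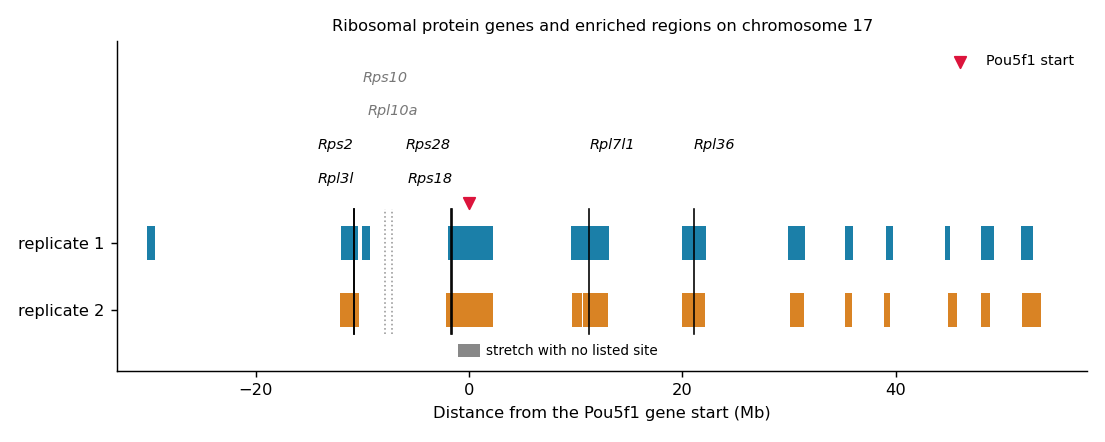
Enriched regions of replicate 1 (upper bars) and replicate 2 (lower bars) on chromosome 17, by distance from the Pou5f1 gene start in Mb (horizontal axis), with the starts of the 8 members as vertical lines. Solid lines mark the 6 members in both lists and dotted lines Rps10 and Rpl10a, which lie between regions, 7.87 and 7.18 Mb upstream.

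In order along the chromosome, Rps2 and the muscle paralog Rpl3l lay 10.8 Mb upstream of Pou5f1 in the region at 23510057 to 25343059. Rps10 and Rpl10a followed at 7.87 and 7.18 Mb upstream, outside every region. The nearest region of replicate 1 was 1.45 Mb from Rps10 and 2.14 Mb from Rpl10a. Rps28 and Rps18 lay 1.68 and 1.55 Mb upstream, in the region that holds Pou5f1 itself (33468438 to 37883965). Both are outside the stretch of 2.04 Mb around Pou5f1 in which no site was listed. Downstream were Rpl7l1, a relative of Rpl7, at 11.3 Mb (region 45237635 to 48740953) and Rpl36 at 21.1 Mb (region 55598230 to 57882023).

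Each of the 6 had a listed site within 5 kb of its start, beside 51% of all 500 genes in regions of both lists. Outside the site-free stretch, 66.4% of 375 other genes had one. Rps2 (24855061 to 24858874, plus strand) had a site 114 bp downstream of its annotated start, in an intron. Of the 81 other genes of its region only 5 had a site nearer to the start. Rps28 (33955972 to 33961507, minus strand) had a site 430 bp downstream, in an exon, with 10 of 94 other genes nearer. Both encode small-subunit proteins, and their sites are printed above.

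Rps18 (34088944 to 34092946, minus strand) had its nearest site 1.83 kb upstream, in an intron of Vps52, with 31 of 94 other genes nearer. Rpl7l1 (46910856 to 46919605, minus strand) had one 2.88 kb downstream in its own intron, with 44 of 85 nearer. For Rpl36 (56752818 to 56753666, plus strand) the site was intergenic, 3.31 kb upstream, with 30 of 68 nearer. For Rpl3l (24864774 to 24873094, plus strand) it was 4.76 kb upstream in an intron of Ndufb10, with 66 of 81 nearer. The outermost annotated start can belong to a minor transcript, so the distances were also taken from the median start over the transcripts of each gene. Of 8 Rps2 transcripts, 1 began at the outermost start, and from the median start the site was 2.03 kb away, with 43 of 81 other genes nearer. The short distance at Rps2 therefore rests on the choice of start. At Rps28, 6 of 7 transcripts began within 100 bp of the outermost start, and from the median start the site was 352 bp away, with 9 of 94 other genes nearer. For the other 4 genes the distance from the median start was between 2.18 and 3.35 kb. That of Rpl3l was 3.35 kb, with 54 of 81 other genes nearer.

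Listed sites inside the gene body were found in 4 of the 85 members, beside 2.61% of all protein-coding genes, and all 4 lie on chromosome 17. Of HindIII motifs in the body, 1 of 2 was listed in Rps2, 1 of 1 in Rpl3l, 2 of 4 in Rps28 and 2 of 3 in Rpl7l1. Rps18 and Rpl36 contain no HindIII motif and could have none. Among genes of both lists outside the site-free stretch, 62.1% of other genes had a site in the body.

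**Figure D4:**
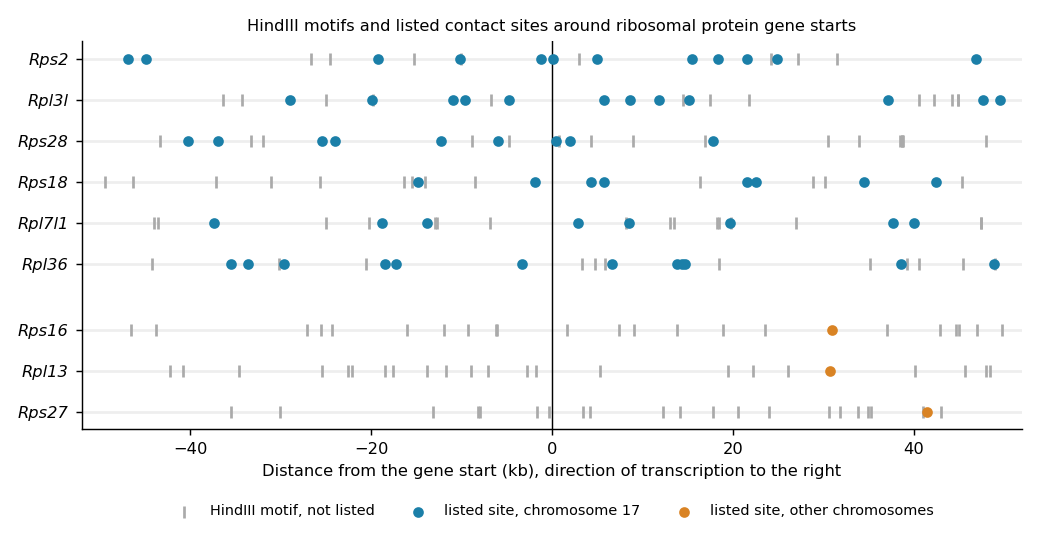
HindIII motifs (grey ticks, not listed; dots, listed) within 50 kb of the gene starts of 9 members, as distance in kb along the direction of transcription (horizontal axis). The upper 6 rows, on chromosome 17, hold between 8 and 12 listed sites each, and the lower 3 rows, on other chromosomes, 1 each.

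Around the starts of the 6 members in both lists, the listed share of motifs ranged from 33.3 to 60.0%. At Rps10 and Rpl10a, which lie outside the regions that the site table covers, 0 of 28 and 0 of 25 motifs were listed. Within 50 kb, 12 of 20 motifs were listed at Rps2 (60.0%, exact 95% interval 36.1 to 80.9%) and 12 of 25 at Rpl3l (48.0%, 27.8 to 68.7%). These are neighbouring genes whose surroundings overlap, so most of these sites are the same. It was 9 of 25 at Rps28 (36%, 18 to 57.5%) and 8 of 21 at Rps18 (38.1%, 18.1 to 61.6%), whose surroundings do not overlap. Rpl7l1 had 8 of 24 (33.3%, 15.6 to 55.3%) and Rpl36 12 of 24 (50.0%, 29.1 to 70.9%). The intervals of all 6 overlap, so their order was not resolved.

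Counting each motif once, 51 of 121 (42.1%, exact 95% interval 33.2 to 51.5%) were listed near the 6 members. Near the other genes of both lists outside the site-free stretch it was 959 of 2880 (33.3%, 31.6 to 35.1%), and over all motifs there 1145 of 3644 (31.4%, 29.9 to 33%). The members' share was higher than both. Its interval holds the 33.3% near other genes, and its lower bound of 33.2% lay above the 31.4% over all motifs. Both pools include regions without a member. Among regions of both lists, 16.4 to 21.2% of motifs were listed in those without a member. In those with a member it was 21.4 to 44.6%, each in the part covered by replicate 1.
Set against other genes of the same region, Rps2 (60.0 against 42.4%), Rpl3l (48.0 against 42.4%), Rps28 (36 against 39.0%), Rps18 (38.1 against 39.0%) and Rpl7l1 (33.3 against 41.3%) had intervals that hold the share near those genes. Rpl36 differed most from its region, at 50.0% against 24.4% (104 of 426 motifs, 20.4 to 28.8%). Its lower bound of 29.1% lay just above that share, and 8 of 68 other genes of the region had a higher share within 50 kb. Rpl36 was singled out after its value was seen, as 1 of 6.

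**Figure D5:**
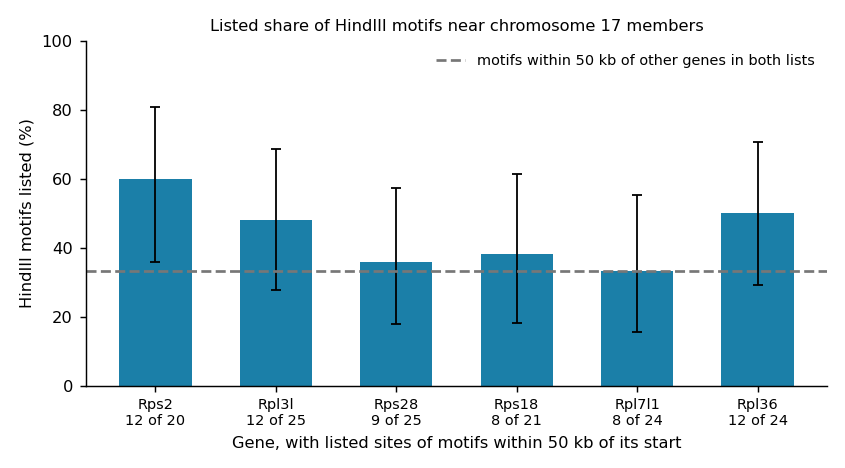
Listed share of the HindIII motifs within 50 kb of the start (vertical axis, percent) for the 6 chromosome 17 members in both lists. Bars are shares, whiskers exact 95% intervals for counting error, and the dashed line is the 33.3% found near other genes of both lists. The whiskers of 5 genes cross the line, and that of Rps2 lies above it, from 36.1%. In the region of Rps2, 42.4% of motifs near other genes were listed, a share within its whisker.

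The contrast between the chromosomes was large for the same kind of gene. Near members in both lists, 42.1% of motifs were listed on chromosome 17 and 2.12% on other chromosomes, and the intervals (33.2 to 51.5% and 0.580 to 5.33%) do not overlap. Other genes gave 33.3 and 2.22%. Regions on chromosome 17 were called with smaller windows and a local background, so membership of a region does not mean the same on both.

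Other genes of protein synthesis, from lists fixed by symbol, were placed in the same way off chromosome 17. Of 68 genes of mitochondrial ribosomal proteins, 20.6 and 33.8% lay in regions of replicates 1 and 2 and 16.2% in both, beside density-matched shares of 19.9, 22.5 and 11.8%. Their replicates differed by more than those of the cytosolic genes (SD 9.36 against 2.75 percentage points, n = 2 each). Of 56 translation initiation factor genes, 26.8 and 23.2% lay in regions of replicates 1 and 2 and 12.5% in both, beside density-matched shares of 19, 21.1 and 10.7%. Of 61 ribosome biogenesis genes it was 16.4% in each list and 9.84% in both, beside density-matched shares of 15.3, 17.1 and 7.80%. The 12 elongation and release factor genes gave 33.3 and 25% (4 and 3 genes) and 16.7% in both (2 genes), beside density-matched shares of 19.2, 20.6 and 10.7%. Of the 4 RNA polymerase I subunit genes, 0 and 1 lay in regions and 0 in both, beside density-matched shares of 16.3, 17.3 and 7.80%. Of 19 aminoacyl-tRNA synthetase genes, 15.8 and 26.3% (3 and 5 genes) lay in regions and 10.5% in both (2 genes), beside density-matched shares of 15.8, 17.9 and 8.46%. These short lists differ from the matched shares by a few genes at most. The excess over matched genes (mean ± SD, n = 2) was 6.01 ± 7.55 percentage points for mitochondrial ribosomal proteins. For initiation factors it was 4.93 ± 4.01, for elongation and release factors 9.28 ± 6.92 and for synthetases 4.17 ± 5.95. For ribosome biogenesis it was 0.171 ± 1.30, and the mean for RNA polymerase I subunits was -4.30. The 6.47 ± 1.13 of the cytosolic members lay within this range, so an excess of that size was not particular to them.

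The highest site counts within 50 kb of these genes were on chromosome 17. Bysl, needed for small-subunit assembly, had 17 of 24 motifs within 50 kb listed, and Polr1c, a subunit of RNA polymerases I and III, 14 of 27. The mitochondrial ribosomal protein genes Mrps10, Mrpl14 and Mrps34 had 12, 11 and 10 sites. Off chromosome 17 the highest counts were 3 sites each at Eif4enif1, which encodes a carrier of eIF4E, Nip7 and Mars, with 2 each at Eif3i and Eif3k, among others, and 1 each at Eef1g and Yars. A site lay within 50 kb of 5 of 68 mitochondrial ribosomal protein genes and 8 of 56 initiation factor genes off chromosome 17 (7.35 and 14.3%), but of 1 of 61 ribosome biogenesis genes (1.64%). It was 1 of 12 elongation and release factor genes, 2 of 19 aminoacyl-tRNA synthetase genes and 0 of 4 RNA polymerase I subunit genes. The share of 5.19% of the cytosolic members was near the background of 5.73% of all genes off chromosome 17. Eif3k, Eef1g, Mars and Nip7 had a site within 2 kb of their start, at 1.03, 0.992, 1.55 and 1.40 kb, nearer than any cytosolic ribosomal protein gene off chromosome 17.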

How the data were processed

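The 2 enzyme-based 4C-Seq samples of E14 ES cells were used. The authors selected reads by the bait primer at their start, aligned what followed to mm9 by BWA (both also named in the submitters' processing notes) and matched them to HindIII sites. They called regions per replicate from z-scores at a permutation FDR, in windows of HindIII sites that were smaller on chromosome 17. The deposited files hold positions only. The reference was NCBIM37 (equal to mm9) with GENCODE M1, counted from 1; a gene start is the outermost annotated 5′ end.

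Genes were placed by their start. Density-matched shares weight other protein-coding genes to the members over 10 equal-count classes of local gene density (5 classes on chromosome 17), with no random draw. Exact binomial intervals came from scipy 1.17.1. The weighting was tested on simulated data. Genes named are members on chromosome 17, in both lists, with a listed site in the body or non-canonical, and up to 3 per other list by listed sites within 50 kb; most other members are listed by place. Counts cover all members, but values of a few single genes are not reported here. Members and lists were chosen with earlier results of these data known. Alternatives were other gene positions, member sets, density spans and classes, distances, unique motifs and leaving out each replicate.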

Additional observations from a re-analysis of the deposited data

How the results depend on the processing

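Most values changed little. The share of members in regions off chromosome 17 stayed between 24.7 and 29.3%, the number in both lists was 8 under every setting tried, and the number on chromosome 17 was 6, or 4 of 6 with core genes only. In regions of both replicates off chromosome 17, the share of members was below that of density-matched genes (10.4 against 11.1%). The excess over density-matched genes taken in each replicate alone kept its direction in all settings. It moved from 6.47 percentage points to 8.11 with core genes only, to 3.61 with HindIII motif density matched as well, to 3.33 without receptor, Gm and Rik genes and to 2.39 with both of these changes; the cause was not tested. Leaving out a replicate gave shares of 24.7 to 28.6%, excesses of 5.67 to 7.27, listed motif shares of 0.778 to 1.11% and 6 to 6 members on chromosome 17. The listed share near members off chromosome 17 was 0% within 10 kb (0 of 54 motifs) and 0% within 25 kb (0 of 102), since the nearest site lay 30.9 kb away, and 1.36% within 100 kb (5 of 368). Of the distances to sites on chromosome 17, only that of Rps2 moved by over 1.5 times with the median transcript start (0.114 to 2.03 kb). Matching within chromosomes, the combined matching, the median start and leaving out chromosome X were chosen after the data were seen. No paired analysis was possible because both samples belong to 1 group, so that no groups could be paired; excesses were taken within each replicate. The files give no read counts for regions or sites, so limits from depth were not computed.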

Other observations

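Short motifs were counted in the promoters of the members, without a test. From 250 bases before to 50 after the annotated start, on both strands, the ETS-family core CCGGAAG was found in 24 of 85 members (28.2%) and in 10.8% of the promoters of all 22350 protein-coding genes. The YY1-type core AAGATGG was found in 10 members (11.8%) and in 6.72% of all promoters. The HindIII motif AAGCTT, at which the chromatin was cut, was found in 8 members (9.41%) and in 6.92% of all promoters. Of the 6 chromosome 17 members in both lists, Rps18 had CCGGAAG and Rpl7l1 had AAGATGG. The annotated start can belong to a minor transcript, and a match is a description of these letters only.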
